A study of Mus musculus with 3 samples.

Results

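The genes of interleukin-2 (IL-2) and of 8 receptor chains of the common gamma chain cytokine family were described in mouse T cells cultured with LZ-8 for 10 h. They were taken by symbol from a count table of 44788 rows, and all 9 (Il2, Il2ra, Il2rb, Il2rg, Il4ra, Il7r, Il9r, Il15ra and Il21r) had a row. The table held 3 libraries of T lymphocytes isolated with CD90.2 beads from spleens of female Balb/c mice aged 6 to 8 weeks and cultured in RPMI medium with 2% serum. LZ-8 comes from the mushroom Ganoderma lucidum and acts on immune cells. All libraries were of LZ-8-treated cells and formed 1 group, so nothing here compares treated with untreated cells. Nothing in the labels ties the replicates to separate animals or cultures, so their spread, and any p-value built on it, may be technical. The series title names Th17 differentiation as its subject.

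IL-2 is a growth factor that T cells make after stimulation through the antigen receptor. It binds a receptor of an inducible alpha chain (Il2ra, CD25) with a beta chain (Il2rb) and the common gamma chain (Il2rg), and the beta and gamma chains carry the signal through JAK1, JAK3 and STAT5. The gamma chain is shared with the receptors of IL-4, IL-7, IL-9, IL-15 and IL-21, each of which adds a chain of its own. IL-15 also uses the beta chain, with Il15ra as its alpha chain.

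The libraries held 13239482, 15007652 and 15683820 counts in replicates 1, 2 and 3, and the 18S ribosomal RNA row Rn18s-rs5 took 5.83%, 2.37% and 0.992% of them. T cell markers were abundant, with 15 of 15 at a mean of 10 counts per 1000000 (CPM, with TMM-scaled library sizes) or more, among them Cd3e at 364 ± 24.2 CPM (values with ± are the mean and SD of n = 3 libraries). Thy1, which encodes CD90, was used for the isolation. Summed markers of B cells, NK cells, macrophages, dendritic cells, neutrophils and mast cells were each between 0.00387% and 0.346% of the summed T cell markers in every library. Among their defining genes Ncr1, Csf1r, C1qa, Siglech and Ms4a2 had 0 counts. The highest marker per kilobase in each list was Cd79b (1.70 ± 0.857 CPM), Prf1 (12.7 ± 1.16), Cd68 (5.57 ± 0.265), Zbtb46 (9.90 ± 0.888), S100a9 (0.171 ± 0.159) and Kit (12.7 ± 0.753). In bulk RNA, fewer cells of a type and less RNA per cell cannot be told apart.

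Il2 and Il2ra, the ligand and the inducible chain of its receptor, are shown first by the sequence ahead of their starts, where factors such as NFAT act on activated T cells. The sequences are RefSeq bases of GRCm38.p6, 5′ to 3′ on the strand of the gene, and capitals mark the NFAT core letters GGAAA in either orientation.
Il2, chr3:37125960-37126204, minus strand: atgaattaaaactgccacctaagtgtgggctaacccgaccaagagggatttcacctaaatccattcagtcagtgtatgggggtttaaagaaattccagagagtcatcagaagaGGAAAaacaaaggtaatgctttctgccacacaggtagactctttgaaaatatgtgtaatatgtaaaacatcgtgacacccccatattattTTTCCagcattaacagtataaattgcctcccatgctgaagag
Il2ra, chr2:11642542-11642791, plus strand: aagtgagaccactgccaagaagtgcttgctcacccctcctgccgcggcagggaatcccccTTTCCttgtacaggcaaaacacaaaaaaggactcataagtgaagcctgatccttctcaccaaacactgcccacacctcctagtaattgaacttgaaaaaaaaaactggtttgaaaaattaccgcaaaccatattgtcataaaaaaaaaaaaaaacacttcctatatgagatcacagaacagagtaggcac
The 245 bases ahead of Il2 held 2 such cores and the 250 bases ahead of Il2ra held 1. Over 250 bases ahead of the start, 55.6% of 32851 windows of the promoter table held the core, so its presence does not set these windows apart. The AP-1 letters TGANTCA (6.75% of windows) and the STAT letters TTCNNNGAA (7.02%), searched on both strands, were in neither window. Il2 also held the TATA box letters TATAAA, found in 12.4% of windows. The STAT letters may share bases with the core letters. Among the 8 members with an entry (all but Il2rb), Il7r alone held the STAT letters, and the AP-1 letters were only in 1 of the 2 windows of Il15ra. Windows were placed by RefSeq starts, and only for Il2 and Il2ra were bases within the GENCODE gene bounds left out. The window of Il7r and that window of Il15ra lie inside the gene bounds given below. Letters in a window are a description and not a binding site.

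Il2, the ligand, was read by 498, 560 and 693 counts in replicates 1, 2 and 3, or 39.1, 36.9 and 42.9 CPM. Its mean was 39.7 ± 3.03 CPM, a coefficient of variation of 7.65% against a counting error of 4.17%. The 3 libraries lay close together, replicate 3 highest and replicate 2 lowest. Levels of different genes were set side by side only after division by exon length, as CPM per kilobase of the union of annotated exons. On that scale Il2, a gene with 1144 bases of exon, was at 34.7 ± 2.65, rank 1283 of 14315 protein-coding genes with a count. Il2 spans bases 37120523 to 37125959 of chromosome 3, on the minus strand (coordinates here are GENCODE M21 gene bounds in GRCm38).

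The other ligands of the family were far below Il2 or not detected. Il21, the follicular helper and Th17 cytokine, had 108, 151 and 131 counts and 1.68 ± 0.185 CPM per kilobase. Il4, the Th2 cytokine, had 25, 48 and 56 counts and 2.34 ± 0.649 CPM per kilobase. Il7 and Il9 had 0 counts in all 3 libraries, where a count of 0 allows up to 0.236, 0.198 and 0.186 CPM in replicates 1, 2 and 3 (3 counts, counting error only). Il15, made mainly by myeloid and stromal cells, had 0, 0 and 2 counts. None of these 5 reached a mean of 10 CPM. The messengers of IL-7 and IL-15 were thus at or under the detection floor in cells whose receptors for them were measured.

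Il2ra was the most abundant member by CPM, with 9691, 12372 and 14641 counts, or 761, 816 and 907 CPM. The libraries stood apart from each other by more than counting error, replicate 1 lowest and replicate 3 highest. Its gene holds 5711 bases of exon on chromosome 2, plus strand, from 11642807 to 11693193. Per kilobase it was at 133, 143 and 159 CPM, a mean of 145 ± 12.9, rank 157 among coding genes.

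Il2rb, the signalling beta chain of the IL-2 and IL-15 receptors, varied little between libraries. It had 5426, 6562 and 6821 counts, or 426, 433 and 423 CPM, a coefficient of variation of 1.21% that was within its counting error of 1.27%. Only 1.96% of the 9204 genes averaging 10 CPM or more varied less between these libraries. Per kilobase it was at 99.6 ± 1.21 CPM, rank 266. This depends on the scaling, since with no scaling factor it was at 99.7 ± 3.54, against 42.7 ± 0.411 for Il21r. Il2rb lies on the minus strand of chromosome 15 from 78479256 to 78495271.

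Il2rg, the chain that all receptors of the family share, was the highest member per kilobase. It had 6359, 7398 and 7668 counts, or 209, 204 and 199 CPM per kilobase, and its mean of 204 ± 5.14 put it at rank 99 of the coding genes. The libraries differed by 1.05-fold at most. Il2rg lies on the minus strand of chromosome X from 101264378 to 101268255. Of its 2387 bases of exon, 728 are shared with the gene model Gm20489 on the same strand. That model has no row under this name among the counts, so the reads of the pair cannot be told apart.

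The 3 chains of the high-affinity IL-2 receptor kept 1 order in every library, gamma above alpha above beta per kilobase. The log2 ratio of Il2rg to Il2rb was 1.07, 1.02 and 1.01 in replicates 1, 2 and 3, a mean of 1.04 ± 0.03. The log2 ratio of Il2ra to Il2rb was 0.42, 0.50 and 0.69, and that of Il2ra to Il2rg was -0.65, -0.52 and -0.33. Per kilobase of exon, messenger of the gamma chain was therefore 2.05-fold that of the beta chain, and messenger of the alpha chain 1.45-fold. These folds rest on the length used. With longest coding transcripts the log2 ratio to Il2rb was 1.52 ± 0.03 for Il2rg and 0.88 ± 0.14 for Il2ra. With no division by length Il2ra was above Il2rg, at 828 against 487 CPM. Each mean was larger than its SD, but an exact two-sided sign-flip test over 3 libraries has 0.25 as its smallest p. Every ratio of a pair of members reached that p in the exact test (0.268 after Benjamini-Hochberg adjustment over the 15 ratios computed).

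**Figure D1:**
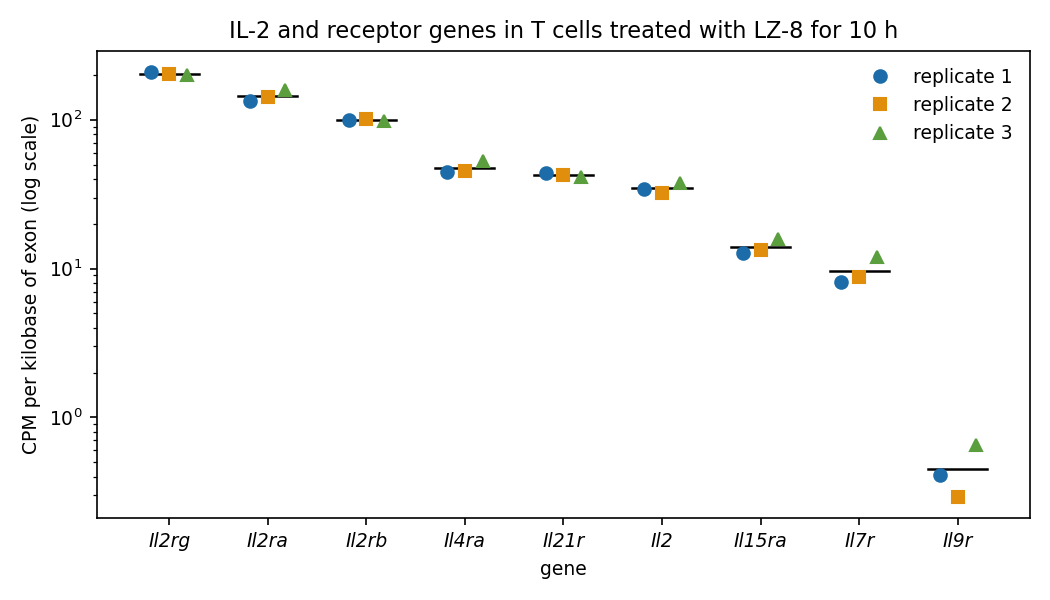
Levels of the 9 members in CPM per kilobase of exon (log axis), a point for each of 3 libraries and a bar at their mean. Il2rg, Il2ra and Il2rb lie between 98.6 and 209, and Il9r lies below 1 in every library.

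The private chains of the other cytokines followed at lower levels. Il4ra, the IL-4 and IL-13 receptor chain that signals through STAT6, had 3389, 4090 and 5127 counts, or 266, 270 and 318 CPM. Replicate 3 stood above the other libraries, which lay together. Il21r, the IL-21 receptor chain, had 1869, 2155 and 2216 counts, or 147, 142 and 137 CPM, with all 3 close together. The genes are on the plus strand of chromosome 7, Il4ra from 125552120 to 125579474 and Il21r from 125603429 to 125633570. The exons of Il4ra overlap 571 bases of an antisense gene model, Gm44876, which has no row under this name among the counts.

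Per kilobase Il4ra (47.4 ± 4.78 CPM) and Il21r (42.7 ± 1.44 CPM) were neighbours that did not differ beyond their spread. Their log2 ratio was 0.15 ± 0.19, from 0.01 to 0.36 between libraries, and it turned to -0.075 ± 0.19 when each gene was divided by its longest coding transcript. Il21r stood above Il2 by a log2 ratio of 0.30 ± 0.14. Relative to the shared gamma chain, the log2 ratio was -2.11 ± 0.18 for Il4ra and -2.26 ± 0.01 for Il21r. The log2 ratio of Il2rb to Il4ra, its neighbour above, was 1.08 ± 0.16. The ratio of Il21r to Il2rg was the tightest of the 15, at -2.24, -2.26 and -2.27 in the 3 libraries.

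Il15ra, which presents IL-15 and carries the sushi fold also found in Il2ra, had 721, 897 and 1135 counts, or 56.6, 59.2 and 70.3 CPM. Replicate 3 was again the highest library, with the other libraries together. The gene follows Il2ra on the plus strand of chromosome 2, from 11705290 to 11734317. At 14.0 ± 1.64 CPM per kilobase of exon it stood 10.4-fold below Il2ra, with log2 ratios of Il2ra to Il15ra of 3.39, 3.42 and 3.33. These alpha chains thus kept nearly 1 ratio although each differed between libraries. Il15ra depends on the gene model, since its annotated exons sum to 4446 bases and its longest coding transcript to 1936. With the latter it was at 32.0 CPM per kilobase and the log2 ratio of Il2ra to it became 2.55. The log2 ratio of Il2 to Il15ra was 1.32 ± 0.09 with all exons and 0.12 ± 0.09 with longest coding transcripts.

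Il7r, the IL-7 receptor chain of resting and memory T cells, had 484, 623 and 896 counts, or 38.0, 41.1 and 55.5 CPM. It varied by 20.8% between libraries, more than 89.4% of genes averaging 10 CPM or more, and replicate 3 stood apart from the others. Per kilobase it was at 9.62 ± 2.00 CPM, 21.5-fold below Il2rg. The log2 ratio of Il15ra to Il7r was 0.55 ± 0.12. Il7r lies on the minus strand of chromosome 15 from 9505788 to 9530176.

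Il9r, the IL-9 receptor chain, was barely detected. It had 26, 22 and 52 counts, or 2.04, 1.45 and 3.22 CPM. The exact 95% Poisson intervals ran from 1.33 to 2.99 CPM, from 0.909 to 2.20 CPM and from 2.41 to 4.22 CPM, in the order of the replicates. The intervals of replicates 1 and 3 overlap and those of replicates 2 and 3 do not. Its mean of 0.452 ± 0.182 CPM per kilobase was 476-fold below Il2rg, and the log2 ratio of Il7r to Il9r was 4.47 ± 0.39. Il9r lies on the minus strand of chromosome 11 from 32187541 to 32200279.

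Within each library, the chains of the IL-2 receptor made up most of the summed level of the 8 receptor genes per kilobase. Il2rg took 37.9%, 36.6% and 34.4% in replicates 1, 2 and 3, and Il2ra 24.2%, 25.6% and 27.4%. Il2rb followed with 17.7 ± 0.592%, Il4ra with 8.41 ± 0.633% and Il21r with 7.60 ± 0.439%. Il15ra took 2.47 ± 0.226%, Il7r 1.70 ± 0.309% and Il9r 0.0799 ± 0.0303%. The share of Il2rg was lowest and that of Il2ra highest in replicate 3. These shares depend on length: with no division by it Il2ra led with 36.3% and Il2rg took 21.4%, and with longest coding transcripts Il15ra took 4.34%.

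Because every private chain pairs with the gamma chain, Il2rg was also set against the sum of Il2rb, Il4ra, Il7r, Il9r and Il21r, a ratio chosen after the values were seen. The log2 ratio was 0.09, 0.05 and -0.05 per kilobase in the 3 libraries, a mean of 0.03 ± 0.07 that did not differ from 0 beyond its spread (exact sign-flip p = 0.5). With longest coding transcripts it was 0.37 ± 0.07, so near equality rests on the exon length used.

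**Figure D2:**
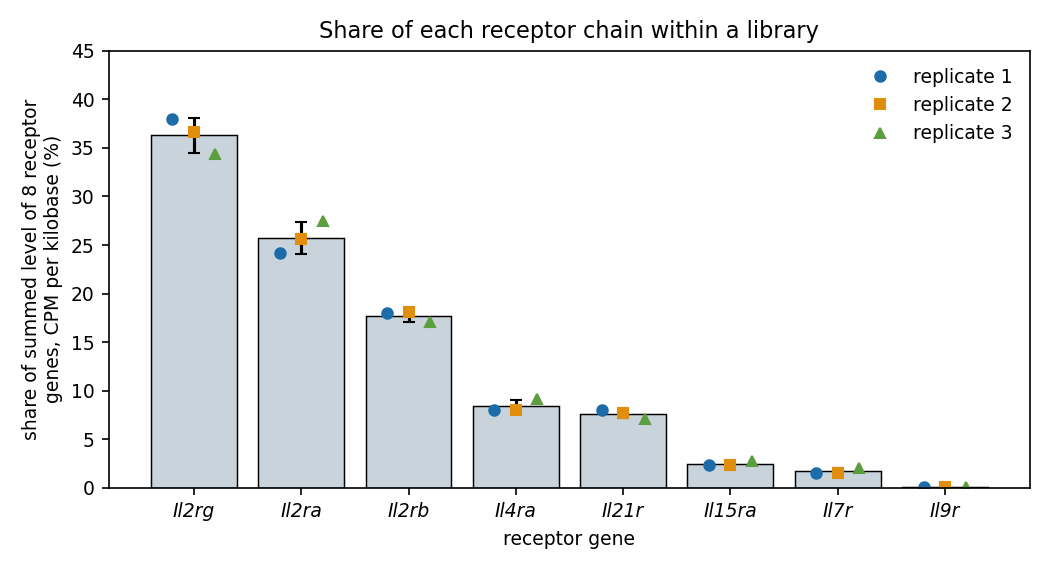
Share of each of 8 receptor genes in their summed CPM per kilobase within a library, bars for the mean, error bars for the SD and points for 3 libraries. Il2rg, Il2ra and Il2rb are the tallest bars at 36.3%, 25.7% and 17.7%.

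Whether the members differed between libraries beyond counting noise was tested with a chi-square test over the 15392 genes that were expected to have at least 5 counts per library. This compares libraries and not conditions. At a Benjamini-Hochberg adjusted p of 0.05, 6 of the 9 members differed, beside 42.8% of all genes tested. That share was not matched for level, here or for the gene lists below, and the test finds smaller differences where counts are higher. The median of the 9 members was 142 CPM, against 2.89 CPM over all genes with a count. The members called were Il2ra (adjusted p = 2.30e-40 by the chi-square test), Il4ra (1.54e-18), Il7r (3.22e-12), Il15ra (1.60e-05), Il9r (0.0109) and Il2rg (0.0297). Il2 (0.0601), Il21r (0.177) and Il2rb (0.493) did not pass. Of the 6, all but Il2rg were highest in replicate 3, beside 19.1% of all genes tested that were called with replicate 3 highest. Il2rg was called with replicate 1 highest, beside 17.9% of all genes tested, and no member with replicate 2 highest, beside 5.76%. Only Il9r differed by 1.5-fold or more between its highest and lowest library (2.22-fold), beside 13.8% of all genes tested.

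Most of these calls were lost without replicate 3, and the share called over all genes fell as well. Without it, Il2ra was the only member called, with an adjusted p of 5.02e-06 in the chi-square test. Of all genes tested, 22.8% (3555) were then called, against 42.8% with all libraries. Without replicate 1, Il2rg did not pass (0.243) and Il2 did (0.0362), beside 24.4% of all genes tested (3836). Without replicate 2, Il9r did not pass (0.114), beside 41.6% of all genes tested. With library totals and no scaling factor, Il2rg did not pass (0.405), while Il2 (0.00866) and Il2rb (0.00181) did. The share over all genes was then 47.1%.

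Coding genes as a whole shifted between libraries with exon length and GC content, and part of the members' pattern ran along with that trend. Il2ra was higher in replicate 3 than in replicate 1 by 0.25 (log2), and the trend at its length and GC content of 44.4% was 0.18. For Il7r the difference was 0.55 and the trend 0.24, for Il15ra 0.31 and 0.10, and for Il9r 0.66 and 0.06. For Il4ra the difference was 0.25 with a trend of -0.00283, so it was as large without the trend. Il2 stood 0.13 higher in replicate 3, against a trend of -0.10. With the trend removed, Il2 passed (adjusted p = 0.000673 in the chi-square test) and Il2rg did not (0.358), and the other members stayed on the same side. Of the 14325 genes tested in that way, 36.9% were called. Rn18s-rs5 had its highest share in replicate 1 and its lowest in replicate 3, and its part in the result was not tested.

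**Figure D3:**
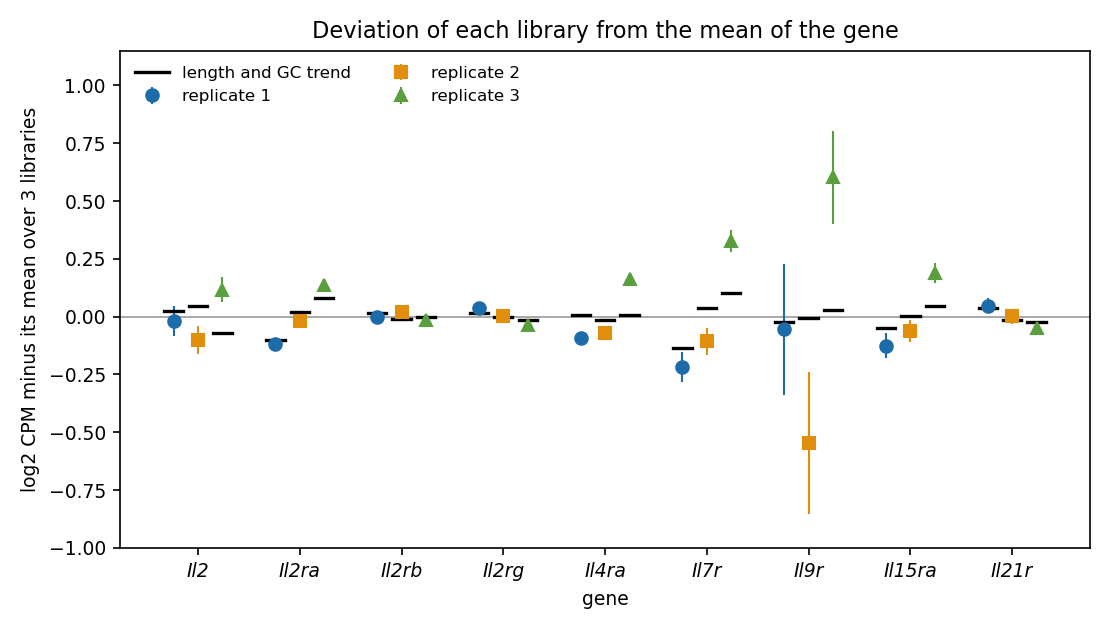
Log2 CPM of each library minus the mean of the gene over 3 libraries, with counting error (1 standard error) as bars and black dashes for the trend of coding genes with the same exon length and GC content. Replicate 3 (triangles) is highest for 6 of 9 members, and the points of Il2rb stay near 0.

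The genes whose levels were most like those of 3 members were found by the largest absolute difference in log2 CPM per kilobase over the 3 libraries, among 12243 coding genes detected in all of them. Nearest to Il2ra were Grap, an adaptor protein of lymphocytes, with a largest difference of 0.04, and Psme3, a proteasome activator, with 0.07, and no further gene lay within 0.1. Nearest to Il2 were the splicing factor gene Puf60 (0.05) and the formin gene Diap1 (0.05), among 22 genes within 0.1. Near Il2rg lay Cnbp, a nucleic acid binding protein (0.09), 1 of 3 genes within 0.1. Likeness over 3 libraries of 1 group mainly reflects a similar level.

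The transducers below these receptors were abundant. Of 15 listed, 14 averaged 10 CPM or more and the median of the list was 242 CPM, beside 39.8% and 2.89 CPM over the 23131 genes with a count. Pik3cd, the leukocyte PI3-kinase catalytic subunit, was at 111 ± 1.76 CPM per kilobase, Stat6, the transducer of IL-4, at 102 ± 2.39, and Stat5a, a main transducer of IL-2, at 96.5 ± 1.80. Stat5a had 694, 697 and 673 CPM in the 3 libraries, which lay together (adjusted p = 0.0553 in the chi-square test). The exception was Gab2, an adaptor, with 4, 4 and 12 counts. Of the 15, 4 differed between libraries, fewer than the 42.8% of all genes tested, 3 of them highest in replicate 3 (19.1% of all genes tested) and 1 in replicate 1 (17.9%).

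Inhibitors of cytokine signalling were present with them, 7 of 7 at 10 CPM or more and a median of 62.0 CPM. Ptpn6, the phosphatase SHP-1, was at 123 ± 1.57 CPM per kilobase and Sh2b3, the adaptor LNK, at 26.2 ± 1.77. Cish, a feedback inhibitor induced through STAT5, had 342, 371 and 407 CPM and a mean of 58.1 ± 5.10 CPM per kilobase. Its libraries stood in the order of those of Il2ra, and both had their highest library 1.19-fold above the lowest. This likeness was picked after the values were seen, how many genes share it was not counted, and a link was not tested. Sh2b3 ran the other way, at 135, 124 and 118 CPM. Socs1, named after its values were seen, had 47.6, 40.6 and 24.3 CPM, with replicate 3 lowest. Of the 7, 5 differed between libraries beside 42.8% of all genes tested, 3 highest in replicate 3 (19.1% of all genes) and 2 in replicate 1 (17.9%).

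Genes that IL-2 and STAT5 are known to induce were also expressed, 14 of 15 at 10 CPM or more with a median of 217 CPM. Tnfrsf4, the costimulatory receptor OX40, was at 235 ± 27.2 CPM per kilobase, Myc, the growth regulator, at 234 ± 8.77, and the survival kinase gene Pim1 at 137 ± 3.26. The exception was the cytokine gene Osm at 8.81 ± 1.32 CPM. Of the 15, 9 differed between libraries beside 42.8% of all genes tested. Replicate 1 was highest for 4 (17.9% of all genes tested), replicate 2 for 3 (5.76%) and replicate 3 for 2 (19.1%). These genes have other inducers in activated T cells.

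Factors that act on the Il2 promoter were measured as well. Of 15 activators, 14 reached 10 CPM, with a median of 101 CPM, and the exception was Fosb at 5.29 ± 1.03 CPM. Nfkb1, a precursor of NF-kB, was at 113 ± 1.32 CPM per kilobase, its partner Rela at 93.0 ± 3.10 and the AP-1 subunit Junb at 72.3 ± 8.50. All 5 repressors reached 10 CPM with a median of 66.9 CPM, led by the Ikaros gene Ikzf1 at 71.9 ± 1.42 CPM per kilobase, its relative Ikzf3 at 27.5 ± 0.471 and Crem at 9.83 ± 0.721. Between libraries 12 of 15 activators differed, beside 42.8% of all genes tested. Replicate 1 was highest for 4 of them (17.9% of all genes tested), replicate 2 for 6 (5.76%) and replicate 3 for 2 (19.1%). Of the 5 repressors 2 differed, near the share of all genes, both highest in replicate 3. Prdm1 stands in the target and the repressor lists.

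Chains that pair with members outside the family were uneven. Crlf2, which joins Il7r in the receptor of TSLP, had 376, 431 and 345 counts and 17.7 ± 2.96 CPM per kilobase, above Il7r in mean. With no division by length Il7r was the higher, at 44.9 CPM against 26.4 for Crlf2. Replicate 3 was the lowest library of Crlf2 (21.4 CPM, against 29.5 and 28.4) and the highest of Il7r. Tslp itself had 0, 0 and 1 counts. Il13ra1, which joins Il4ra in the receptor of IL-13, had 2, 1 and 3 counts, and the decoy chain Il13ra2 had 0. Il13 was detected by 40, 40 and 23 counts. Crlf2 (adjusted p = 5.82e-05) and Il13 (0.0197) differed between libraries by the chi-square test, beside 42.8% of all genes tested. They were the only 2 genes of this list with enough counts to test, and both were highest in replicate 1 (17.9% of all genes tested).

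**Figure D4:**
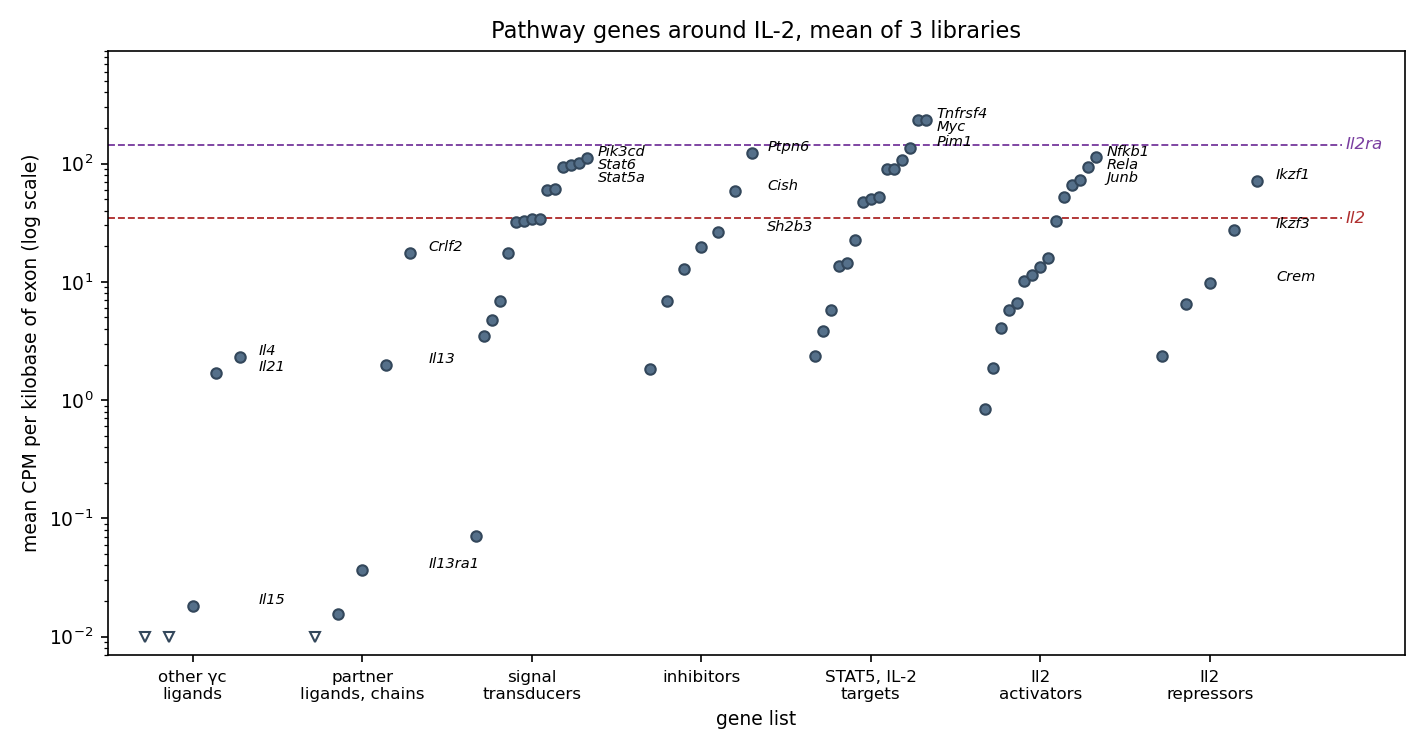
Mean CPM per kilobase of exon (log axis) of genes in 7 lists around IL-2, a point per gene over 3 libraries, with open triangles for genes below 0.01 and dashed lines at the means of Il2 (34.7) and Il2ra (145). The other ligands lie below the line of Il2, and Tnfrsf4 and Myc lie above that of Il2ra.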

How the data were processed

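RNA of 3 libraries of LZ-8-treated T cells was extracted with Trizol and read on the Ion Proton platform, per the labels. A single file of raw read counts by gene symbol was deposited by the authors, on mm10 per the submitters' processing notes. No aligner, counting tool or strand rule is named (not given in the sources used here). Counts were scaled by TMM (edgeR 4.0.16, R 4.3.3; factors 0.962, 1.01 and 1.03). Exon lengths and coordinates came from GENCODE M21 (GRCm38), with 32261 symbols matched, and promoter bases from RefSeq. Differences between libraries were tested by a chi-square test of counts against effective library sizes (scipy 1.17.1). On simulated counts of 15381 genes for this test, sets of 50 genes were altered, and the test recovered 36% at 1.25-fold, 64% at 1.5-fold, 78% at 2-fold and 100% at 4-fold. Of its calls, 3.47% were false. Apart from the altered genes, the simulated libraries differed only by depth and Poisson counting noise, so these rates need not hold for the real libraries. Trends used robust regression on splines with 6 degrees of freedom (statsmodels 0.14.6). Intervals and floors cover counting error only.

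The members and lists were chosen with earlier results of these data known. Named genes were the members, the other ligands, the 3 highest genes per kilobase of each pathway list, the leading marker of each other cell type (of which the summed lists are given), Cd3e, and the 2 nearest genes of Il2, Il2ra and Il2rg. Some genes under this rule are not reported here. Genes named outside it (Gab2, Osm, Fosb, Prdm1, Tslp, Il13ra2, Thy1, Socs1, Ncr1, Csf1r, C1qa, Siglech and Ms4a2) were chosen after their values were seen. Alternatives were DESeq2 1.42.0 size factors, no scaling factor, other lengths, filters and limits, and leaving out each replicate. No pair of libraries agreed within sampling noise, and none was taken for a copy.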

Additional observations from a re-analysis of the deposited data

How the results depend on the processing

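Every alternative scaling kept the 9 levels within 1 SD. Scaling factors nearly average out over the 3 libraries, so a mean could hardly move and this is no check of the levels. The spread did move: with no scaling factor the SD went from 1.21 to 3.54 for Il2rb and from 1.44 to 0.411 for Il21r. With 3 libraries, leaving 1 out cannot move a mean by 1 SD, so that alternative is no check of the levels. Division by the longest coding transcript gave 188 CPM per kilobase for Il2ra, 102 for Il2rb, 292 for Il2rg, 54.1 for Il4ra, 12.7 for Il7r, 32.0 for Il15ra and 56.8 for Il21r, because these lengths are shorter. It also turned the log2 ratio of Il4ra to Il21r to -0.075, while the other ratios kept their sign under the alternatives run. Leaving out a replicate could not turn a ratio of a pair, since each had 1 sign in all 3 libraries. Ratios with no division by length were not run. In mean CPM Il2 was below Il15ra (39.7 against 62.0) and Il2ra above Il2rg (828 against 487), the reverse of their order per kilobase. With longest coding transcripts the shares of Il2rb, Il2rg, Il4ra and Il15ra were 13.8%, 39.6%, 7.33% and 4.34%. With no division by length, the shares of Il2ra, Il2rb, Il2rg, Il4ra, Il15ra and Il21r were 36.3%, 18.8%, 21.4%, 12.5%, 2.72% and 6.25%, so Il2ra then led. Leaving out 1 replicate gave 3555 to 6384 genes called (22.8% to 41.6% of those tested) and 1 to 6 members called. At a limit of 1 CPM, 2 of the other ligands and 2 of the partner genes were reached, and at 5 CPM 1 ligand. No paired analysis was possible because the study has 1 group. Depth limits Il9r, Il4, Il15 and Il13ra1, which rest on few counts.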
